A study of Mus musculus with 17 samples.

Results

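The genes described here are 8 TNF superfamily ligands measured in mouse CD8+ T cells: Tnf, Lta, Ltb, Tnfsf8, Tnfsf10, Tnfsf11, Tnfsf14 and Fasl. They were listed by name as ligands made by T cells, with earlier results of these data known, and matched to 53679 genes in the count files. All 8 were among the 16246 genes that passed the filter on low counts and were tested. RNA-seq libraries came from CD8+ T cells of C57BL/6 mice that were wild type (WT) or carried a knockout (KO) of Cblb, the gene of an E3 ubiquitin ligase that acts as a brake on T cells. The cells of each genotype were unstimulated, or were stimulated for 12 hours with an antibody to CD3 (a part of the T cell receptor complex) or with antibodies to CD3 and to CD28 (a costimulatory receptor). The 6 groups held 3 libraries each, except for WT cells with both antibodies, which had 2 (replicates 2 and 3), 17 libraries in all. The labels do not say whether the replicates came from separate animals, so the p-values below measure the spread between these libraries only, which may be technical.

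TNF superfamily ligands are mostly membrane proteins that act as trimers on receptors of the TNF receptor superfamily, on the cell surface or after being cut free. On T cells they carry help, costimulation and killing. Tnf encodes tumour necrosis factor, a main inflammatory product of activated CD8+ T cells, which the protease ADAM17 releases. Lta encodes lymphotoxin alpha, which is secreted alone or held at the surface by lymphotoxin beta, the product of Ltb. Tnfsf14 encodes LIGHT, Tnfsf11 encodes RANKL and Tnfsf8 the ligand of CD30, while Tnfsf10 (TRAIL) and Fasl encode death ligands.

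On GRCm38, Ltb lies at chr17:35194439-35196320 on the forward strand, and Tnf at chr17:35199381-35202007 and Lta at chr17:35203165-35205351 on the reverse strand, so that these genes are neighbours in the major histocompatibility region. Tnfsf14 lies at chr17:57189492-57194177 on the reverse strand. The others are Tnfsf8 at chr4:63831308-63861347, Tnfsf11 at chr14:78277445-78308043 and Fasl at chr1:161780689-161788495, on the reverse strand, and Tnfsf10 at chr3:27317028-27342427 on the forward strand. No exon of the 8 genes overlapped an exon of another annotated gene.

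The upstream sequences of Tnf, Lta, Ltb, Tnfsf11 and Tnfsf14 are shown because Tnf, Lta, Tnfsf11 and Tnfsf14 were all higher in KO cells after stimulation, whereas Ltb, the neighbour of Tnf and Lta, was not. They are from RefSeq on GRCm38.p6 and run 5′ to 3′ on each gene's strand. Capitals mark matches, on either strand, to the NFAT core TGGAAA, the AP-1 element TGANTCA, the kappaB consensus and the TATA element TATAAA. The windows are chr17:35202008-35202257 for Tnf, chr17:35205352-35205601 for Lta, chr17:35194257-35194438 for Ltb, chr14:78308044-78308293 for Tnfsf11 and chr17:57194182-57194431 for Tnfsf14, on the strands given above, and the Ltb window stops at the annotated gene start.
Tnf: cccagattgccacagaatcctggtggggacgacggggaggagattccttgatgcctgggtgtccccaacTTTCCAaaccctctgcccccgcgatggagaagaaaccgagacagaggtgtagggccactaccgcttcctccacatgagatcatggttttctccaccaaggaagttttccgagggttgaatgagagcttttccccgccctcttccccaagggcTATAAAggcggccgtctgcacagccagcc
Lta: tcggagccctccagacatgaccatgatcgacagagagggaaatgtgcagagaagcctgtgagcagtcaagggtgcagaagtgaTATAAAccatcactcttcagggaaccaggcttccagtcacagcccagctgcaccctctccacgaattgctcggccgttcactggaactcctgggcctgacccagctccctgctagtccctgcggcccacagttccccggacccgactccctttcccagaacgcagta
Ltb: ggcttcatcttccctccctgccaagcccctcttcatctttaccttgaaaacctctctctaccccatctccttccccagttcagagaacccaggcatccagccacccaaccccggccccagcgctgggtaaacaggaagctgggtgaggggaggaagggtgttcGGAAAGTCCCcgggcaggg
Tnfsf11: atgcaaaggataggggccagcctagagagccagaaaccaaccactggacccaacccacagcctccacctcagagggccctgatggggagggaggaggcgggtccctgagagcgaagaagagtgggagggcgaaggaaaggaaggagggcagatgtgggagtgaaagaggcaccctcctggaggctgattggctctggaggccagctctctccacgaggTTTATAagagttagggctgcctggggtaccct
Tnfsf14: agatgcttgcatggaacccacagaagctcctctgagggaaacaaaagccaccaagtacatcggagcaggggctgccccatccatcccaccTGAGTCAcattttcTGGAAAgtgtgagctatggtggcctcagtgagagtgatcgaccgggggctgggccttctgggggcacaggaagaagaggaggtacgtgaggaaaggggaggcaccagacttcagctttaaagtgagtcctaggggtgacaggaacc

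The Tnf window held an NFAT core on the opposite strand 181 to 176 bases before the RefSeq start, and a TATA element 29 to 24 bases before it. Tnfsf11 had a TATA element on the opposite strand 32 to 27 bases before its start, and in Lta the letters TATAAA stood 167 to 162 bases before it. In Tnfsf14 an AP-1 element (160 to 154 bases before the start) was followed by an NFAT core (146 to 141 bases before it). In Ltb a kappaB match on the opposite strand stood 87 to 78 bases before the RefSeq start. The printed Ltb sequence ends 69 bases before that RefSeq start. No matches overlapped one another. Among 32851 RefSeq windows of 250 bases, 18.6% held the NFAT core (3 of 8 ligand genes, the third being Tnfsf10), 6.7% the AP-1 element (1 of 8), 3.9% the kappaB consensus (1 of 8) and 12.4% the TATA element (3 of 8). The Sp1 motif GGGCGG, not capitalised, was in 32.7% of the windows and in 2 of 8 ligand genes, Tnf and Fasl. These are matches of letters, not measured binding.

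Total counts per library ranged from 16635826 to 38269033, with 160059285 in replicate 2 of the unstimulated KO cells. Cblb itself stood at 139.5 to 190.1 CPM (counts scaled to the library total times its TMM normalization factor) in WT libraries and at 63.9 to 95.9 CPM in KO libraries, with no overlap. The summed level of 5 CD8 T cell markers was 1436 to 2951 CPM, against 5.16 to 27.2 CPM for 5 B cell markers, 3.53 to 14.1 CPM for 8 myeloid and dendritic cell markers and 1.94 to 6.35 CPM for 5 NK and CD4 T cell markers. Libraries also differed in GC tilt, that is, how far GC-rich genes (56% or more) stood above GC-poor genes (40% or less) in median log2 deviation. It ran from -1.17 (KO with both antibodies, replicate 3) to 1.201 (unstimulated KO, replicate 2).

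Ltb was the most abundant ligand transcript per unit of length in the mean of every group. Levels of different genes are compared here as CPM per kb of exon. In unstimulated WT cells Ltb stood at 79.0 ± 19.6 CPM per kb (SD, n = 3), followed by Tnfsf8 at 26.4 ± 1.31, Tnf at 12.0 ± 2.45 and Tnfsf10 at 10.7 ± 0.234, the latter pair with overlapping ranges. Tnfsf14 at 3.24 ± 0.745, Lta at 3.08 ± 0.182 and Fasl at 2.91 ± 0.356 CPM per kb overlapped one another, and Tnfsf11 was lowest at 0.408 ± 0.206. In KO cells with anti-CD3 Ltb (142 ± 5.98 CPM per kb) was followed by Tnf (71.2 ± 12.5), which lay above Tnfsf8 (53.8 ± 7.33). Lta (46.0 ± 12.8) overlapped both Tnfsf8 and Tnfsf14 (35.1 ± 3.60), and Tnfsf11 (8.88 ± 0.618), Fasl (5.70 ± 0.547) and Tnfsf10 (5.43 ± 0.211) were lowest, the last pair overlapping.

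The summed level of the 8 genes was 138 ± 22.8 CPM per kb in unstimulated WT cells and 212 ± 30.3 in unstimulated KO cells (SD, n = 3 each). With anti-CD3 it was 225 ± 13.6 in WT and 368 ± 42.3 in KO cells, and with both antibodies 292 ± 4.25 (n = 2) and 314 ± 11.8. Ltb made up 56.8% of this sum in unstimulated WT and 69.0% in unstimulated KO cells, and 48.9% and 38.8% with anti-CD3. The share of Lta was 2.27% and 1.83% in unstimulated WT and KO cells, and 5.11% and 12.4% with anti-CD3. Tnf took 13.8% with anti-CD3 in WT and 19.3% in KO cells. With both antibodies Ltb made up 65.8% in WT cells, and in KO cells its share differed between libraries, from 18.7 to 50.5%. These sums and shares are from the counts as deposited and move with Ltb, which after a correction for GC content stood at 152 to 179.6 CPM in unstimulated WT and 155 to 162 CPM in unstimulated KO libraries, against 87.4 to 146 and 168 to 269.6 CPM as deposited.

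**Figure D1:**
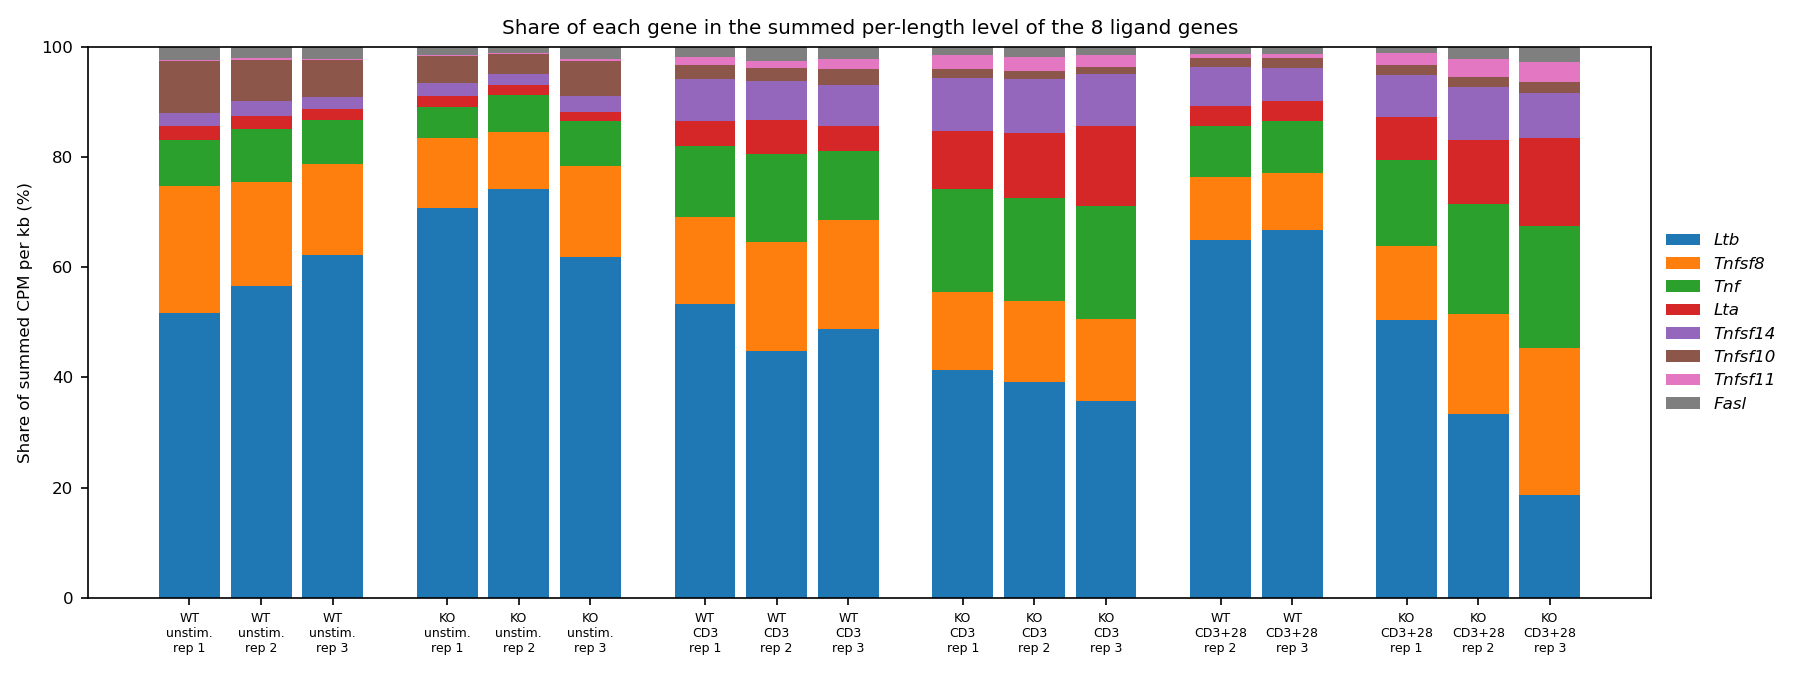
Each bar is 1 library and each colour the share (%) of a ligand gene in the summed CPM per kb of the 8 genes. Ltb takes 51.6 to 74.2% in the unstimulated libraries, and the mean shares of Tnf and Lta with anti-CD3 are larger in KO cells (19.3% and 12.4%) than in WT cells (13.8% and 5.11%).

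Stimulation raised most of the ligand genes in both genotypes and lowered Tnfsf10. With anti-CD3, 6 of the 8 rose and 1 fell in WT cells, where 24.4% of all tested genes were called in either direction, and 6 rose and 1 fell in KO cells, where 36.9% were called. A gene is called at an adjusted p below 0.05 (edgeR quasi-likelihood test, Benjamini-Hochberg over all genes tested). With both antibodies 5 rose and 1 fell in WT cells (34.1% of all genes called) and 6 rose and 1 fell in KO cells (45.4% called). The median log2 fold change of the 8 genes with anti-CD3 was 1.07 in WT and 1.64 in KO cells, beside medians over all genes of -0.0037 and 0.0238. In each genotype the comparisons with anti-CD3 and with both antibodies share the same unstimulated libraries. Marker levels differed between the states as well. The summed CD8 T cell markers were at 1436 to 1612 CPM in stimulated and 2685 to 2951 CPM in unstimulated libraries, with 5 of 5 called lower with anti-CD3 in WT cells. The summed B cell markers were lower too, at 5.16 to 9.93 CPM against 17.1 to 27.2 CPM unstimulated. Of these 5 markers, 4 were under 1 CPM in unstimulated cells of each genotype, and 1 was called lower with anti-CD3 in WT cells. The summed myeloid and dendritic cell markers were at 3.53 to 6.60 against 8.03 to 14.1 CPM. In WT cells 2 of the 4 tested were called lower with anti-CD3. Those of NK and CD4 T cells were lower within each genotype. In WT libraries they were at 3.19 to 5.09 against 5.15 to 6.17 CPM unstimulated. In KO libraries they were at 1.94 to 3.71 against 4.997 to 6.35 CPM. Of the 3 tested, 1 was called lower with anti-CD3 in each genotype, and with both antibodies 0 in WT and 3 in KO cells. The part of these levels in the responses was not tested.

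Tnfsf11, whose product RANKL acts on dendritic cells and osteoclast precursors, was low before stimulation and had the largest rise of the 8 with anti-CD3 in both genotypes. Its levels in replicates 1 to 3 were 0.616, 1.44 and 0.679 CPM in unstimulated WT libraries and 7.74, 6.43 and 8.33 CPM with anti-CD3. In KO libraries they were 1.07, 0.582 and 1.42 CPM unstimulated and 18.4, 20.1 and 21.1 CPM with anti-CD3. Every stimulated library was above every unstimulated one of its genotype. With anti-CD3, 45.4% of all genes in WT and 49.7% in KO cells did not overlap, in either direction. The log2 fold change with anti-CD3 was 3.02 ± 0.32 (SE, n = 3 against 3, adjusted p 2.34e-06 by edgeR) in WT and 4.52 ± 0.32 (adjusted p 1.64e-08) in KO cells. With both antibodies it was 2.26 ± 0.35 (n = 2 against 3, adjusted p 0.000183 by edgeR) and 4.62 ± 0.32 (adjusted p 1.37e-08).

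Tnfsf14, whose product LIGHT binds the receptor HVEM and the lymphotoxin beta receptor, also rose in both genotypes. It was at 4.67, 7.41 and 5.88 CPM in unstimulated WT libraries and 33.1, 30.8 and 28.6 CPM with anti-CD3. In KO libraries it was at 9.10, 8.30 and 9.38 CPM unstimulated and 59.5, 62.7 and 72.3 CPM with anti-CD3. Stimulated and unstimulated libraries did not overlap, as for 45.4% of all genes in WT and 49.7% in KO cells. The log2 rise was 2.37 ± 0.16 in WT and 2.87 ± 0.16 in KO cells with anti-CD3 (SE, adjusted p 7.28e-09 and 3.88e-10 by edgeR), and 2.55 ± 0.17 and 2.48 ± 0.15 with both antibodies.

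The neighbours Tnf and Lta rose in both genotypes. Tnf was at 15.3, 23.2 and 20.4 CPM in unstimulated WT libraries, 49.3, 60.7 and 42.7 with anti-CD3, and 44.8 and 44.7 with both antibodies. In KO libraries it was at 20.05, 26.5 and 24.1 CPM unstimulated, 103, 107 and 140.3 with anti-CD3, and 80.0, 107 and 110.1 with both. Stimulated and unstimulated libraries of a genotype were fully apart, as with anti-CD3 were those of 45.4% of all genes in WT and 49.7% in KO cells. The log2 rise of Tnf with anti-CD3 was 1.38 ± 0.18 in WT and 2.30 ± 0.18 in KO cells (SE, n = 3 against 3, adjusted p 2.09e-05 and 4.52e-08 by edgeR).

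Lta was at 3.99, 4.49 and 4.30 CPM in unstimulated WT libraries, 14.8, 19.8 and 13.3 with anti-CD3, and 15.2 and 14.1 with both antibodies. In KO libraries it was at 5.84, 6.03 and 4.27 CPM unstimulated, 49.5, 58.0 and 83.6 with anti-CD3, and 33.6, 52.0 and 66.6 with both. The stimulated KO libraries were all above the stimulated WT libraries. The log2 rise of Lta with anti-CD3 was 1.91 ± 0.25 in WT and 3.54 ± 0.25 in KO cells (SE, adjusted p 3.98e-05 and 3.03e-08 by edgeR).

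Tnfsf10, the gene of the death ligand TRAIL, fell. Unstimulated libraries held 55.6 to 57.7 CPM (WT) and 46.8 to 61.4 CPM (KO), and it was at 27.1 to 33.2 CPM in the stimulated libraries, with no overlap. The same held with anti-CD3, in either direction, for 45.4% of all genes in WT and 49.7% in KO cells. Its log2 fold change was -0.89 ± 0.10 in WT and -0.94 ± 0.10 in KO cells with anti-CD3, and -1.003 ± 0.12 and -0.83 ± 0.10 with both antibodies (SE, the largest adjusted p being 7.38e-06 by edgeR). Fasl, the ligand of the death receptor Fas, rose with anti-CD3. It was at 4.96, 5.63 and 6.34 CPM in unstimulated WT libraries and 8.31, 11.4 and 8.89 CPM with anti-CD3, a log2 rise of 0.77 ± 0.23 (adjusted p 0.0229), which missed the threshold without WT anti-CD3 replicate 2 and without unstimulated WT replicate 1 or 2.

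Tnfsf8, the ligand of CD30, was at 98.4, 106 and 96.6 CPM in unstimulated WT libraries and 142, 174 and 159 CPM with anti-CD3. It rose by 0.66 ± 0.17 on the log2 scale in WT and by 0.98 ± 0.17 in KO cells with anti-CD3 (adjusted p 0.00812 and 0.000224 by edgeR). With both antibodies Tnfsf8 and Fasl were called in KO cells (1.16 ± 0.17 and 1.01 ± 0.23), and in WT cells they stood at 0.27 ± 0.19 and 0.36 ± 0.26 (adjusted p 0.275 and 0.311). With the GC correction both passed the threshold in WT cells as well, at 0.48 and 0.56 (adjusted p 0.00462 and 0.0402 by edgeR). Fasl overlapped between stimulated and unstimulated KO libraries there, and its call ended without both libraries of extreme GC tilt (adjusted p 0.0682 by edgeR). The difference between the genotypes in this response passed the test for Tnfsf8 as deposited (0.89 ± 0.25, adjusted p 0.0126) but not with the correction (0.26, adjusted p 0.315), whereas for Fasl it was 0.65 ± 0.36 (adjusted p 0.159 by edgeR).

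**Figure D2:**
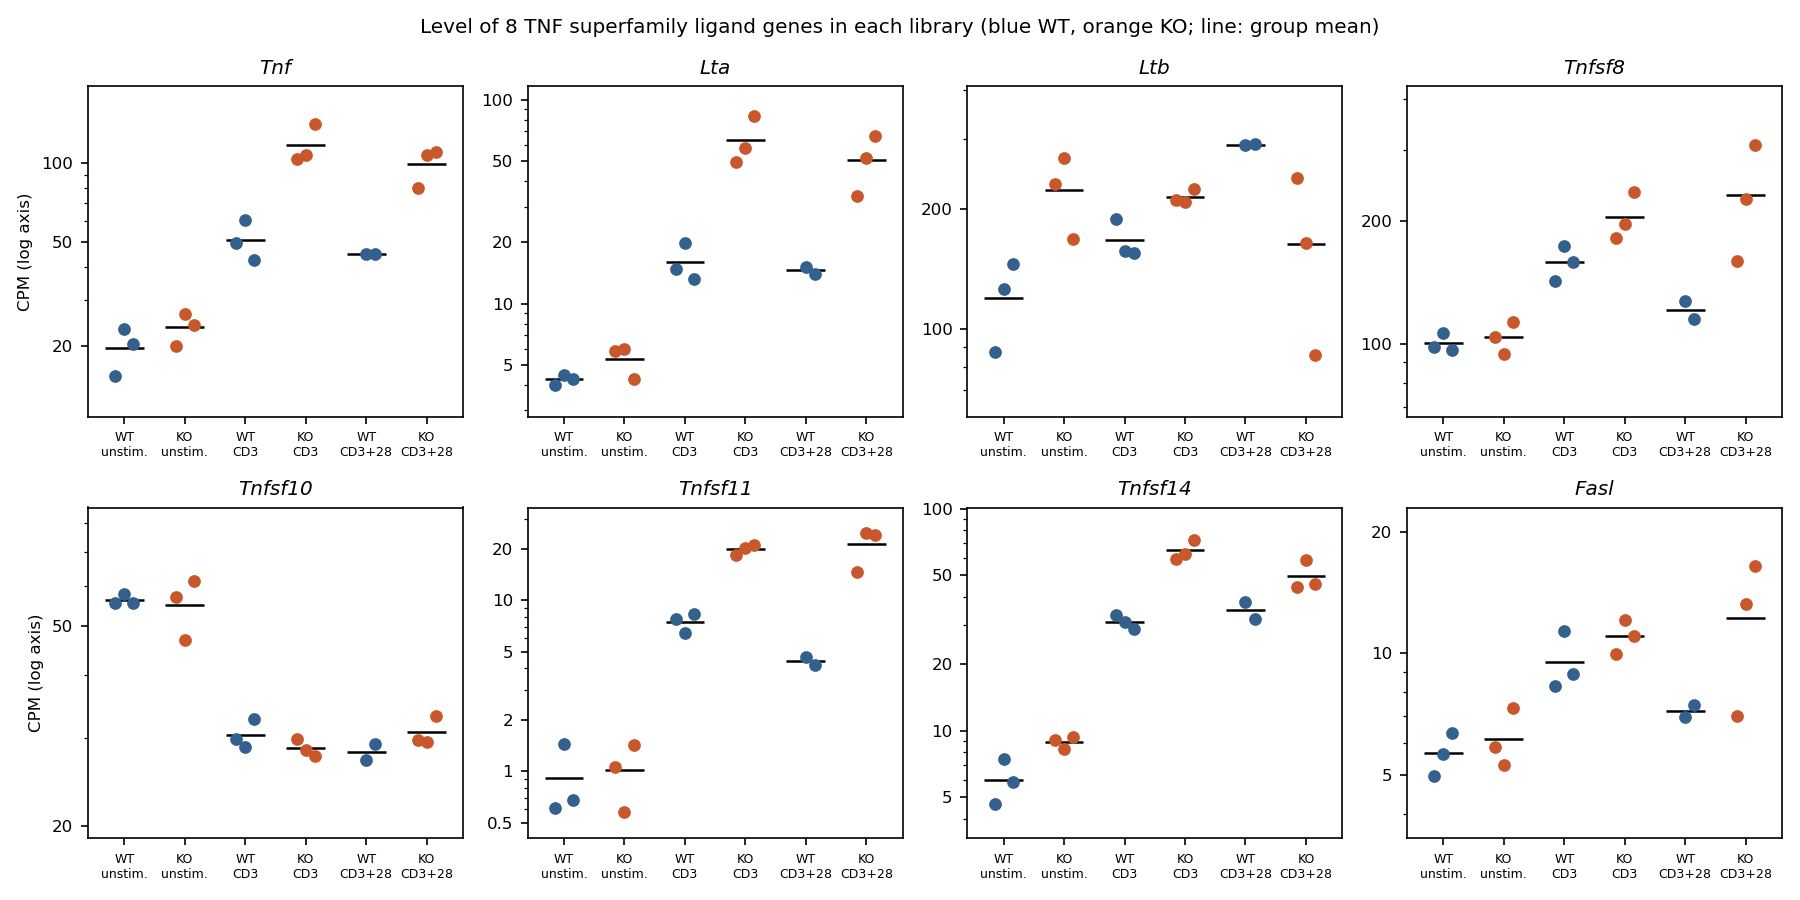
Level of each ligand gene in each library in CPM on a log axis, by group, with WT and KO libraries in different colours and the group mean as a line. Tnf, Lta, Tnfsf11 and Tnfsf14 are higher in every stimulated library than in the unstimulated libraries of the same genotype, and Tnfsf10 is lower.

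**Figure D3:**
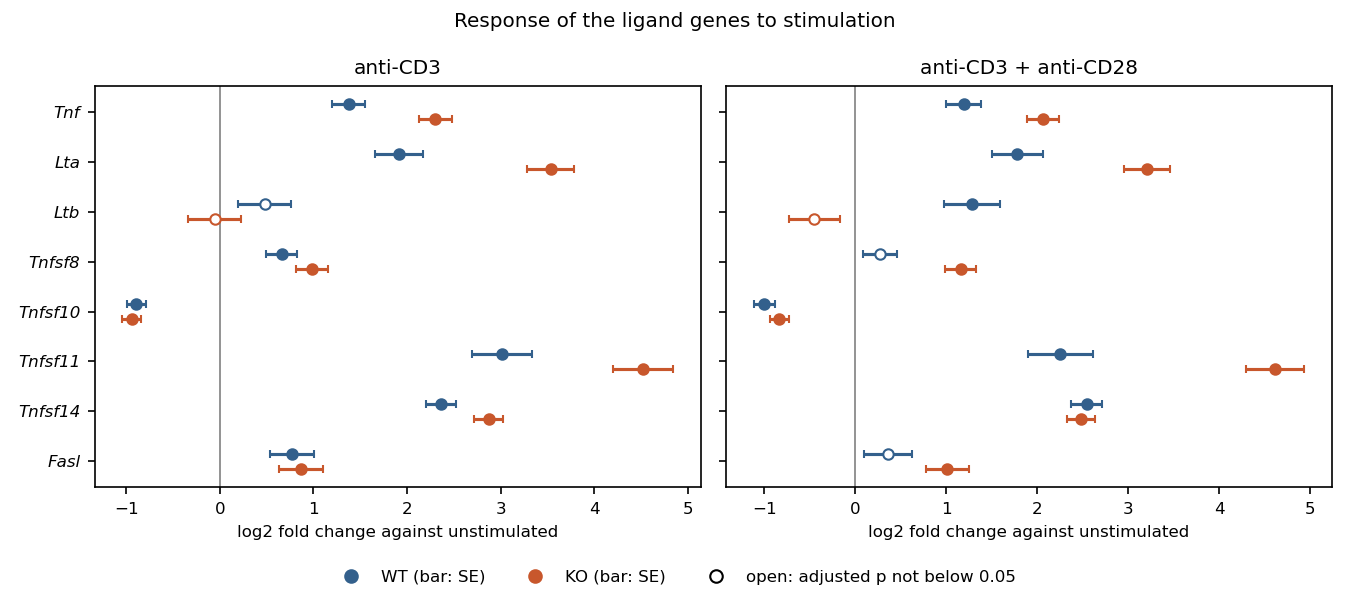
The log2 fold change of each ligand gene against unstimulated cells of the same genotype, with the SE as a bar, for WT and KO cells. Filled points have an adjusted p below 0.05 (edgeR). Tnfsf11 has the largest rise with anti-CD3 in both genotypes, and Tnfsf10 is below 0 in all 4 comparisons.

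More of the ligand genes differed between KO and WT cells in the stimulated states than in the unstimulated state. With anti-CD3, 4 of the 8 were higher in KO cells (Tnf, Lta, Tnfsf11 and Tnfsf14) and 0 lower, where 15.3% of all tested genes were called, 10.5% as higher. With both antibodies 5 were higher (those 4 and Tnfsf8) and 0 lower, where 16.1% of all genes were called, 9.84% as higher. The median log2 difference of the 8 was 0.72 with anti-CD3 and 0.85 with both antibodies, beside medians over all genes of 0.0367 and 0.0002. In unstimulated cells 2 were higher (Ltb and Tnfsf14) and 0 lower, where 25.4% of all genes were called, and the median of the 8 was 0.19. In such bulk samples, more cells expressing a gene and more RNA per cell cannot be told apart. With anti-CD3 the summed CD8 T cell markers were at 1436 to 1514 CPM in KO and 1592 to 1612 CPM in WT libraries. With both antibodies they were at 1486 to 1528 and 1547 to 1555 CPM. Those of NK and CD4 T cells overlapped with anti-CD3, and with both antibodies were at 1.94 to 3.05 and 4.31 to 5.09 CPM. B cell markers and myeloid and dendritic cell markers overlapped in both stimulated states. The part of these levels was not tested.

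With anti-CD3 the log2 difference of KO against WT was 1.99 ± 0.23 for Lta, 1.41 ± 0.26 for Tnfsf11, 1.198 ± 0.17 for Tnf and 1.08 ± 0.14 for Tnfsf14 (SE, n = 3 against 3, adjusted p 8.39e-05, 0.00175, 0.000303 and 0.000169 by edgeR). These are folds of 3.98, 2.66, 2.29 and 2.11. The 3 KO libraries were above the 3 WT libraries for each of them, as for 27.4% of all genes. The 4 calls held under each of 27 alternatives, of which 17 each left out 1 library of the whole fit and 10 were other settings. Tnfsf8 was also higher in the KO libraries (182, 197 and 236 against 142, 174 and 159 CPM) without overlap, and its difference of 0.37 ± 0.17 missed the threshold (adjusted p 0.146). Tnfsf10 and Fasl overlapped between the genotypes, with differences of -0.088 ± 0.10 and 0.21 ± 0.23 and 95% intervals of -0.30 to 0.12 and -0.27 to 0.69.

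With both antibodies the log2 difference was 2.26 ± 0.32 for Tnfsf11, 1.79 ± 0.27 for Lta, 1.14 ± 0.20 for Tnf, 0.93 ± 0.19 for Tnfsf8 and 0.51 ± 0.16 for Tnfsf14 (SE, n = 3 against 2, adjusted p 0.00165, 0.00232, 0.00363, 0.00705 and 0.0429 by edgeR). Tnfsf11 was at 4.67 and 4.16 CPM in the WT and 14.6, 24.9 and 24.1 CPM in the KO libraries, and Tnfsf14 at 38.1 and 31.7 CPM in the WT and 44.3, 58.8 and 45.6 CPM in the KO libraries. For these 5 genes and Tnfsf10 the KO libraries lay above the WT libraries, as for 24.6% of all genes. None of the 5 calls held under every alternative. A fit of only the groups compared called none of the 8 and 0 of all genes (3037 at an unadjusted p below 0.05). Without WT replicate 3 none of the 8 was called, and without WT replicate 2 only Tnfsf11 was. The call of Tnfsf14 held under 15 of the 27 alternatives. Fasl was at 6.99, 13.2 and 16.5 CPM in KO and 6.96 and 7.44 CPM in WT libraries, which overlap, with a difference of 0.76 ± 0.27 (adjusted p 0.0575 by edgeR).

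In unstimulated cells Tnfsf14 was higher in KO libraries by 0.57 ± 0.16 on the log2 scale (adjusted p 0.0193) and Ltb by 0.90 ± 0.28 (adjusted p 0.0333 by edgeR), both without overlap, as for 21.9% of all genes. With a correction for GC content these differences were 0.084 (adjusted p 0.857) and -0.048 (adjusted p 0.739). Without unstimulated KO replicate 2 or WT replicate 1 neither was called, and without KO replicate 1 or WT replicate 2 Ltb was not. The call of Ltb also ended with the replicate number as a block and with no filter on low counts, and that of Tnfsf14 with limma voom and in a fit of only the groups compared. Beside them, the summed B cell markers stood at 19.0 to 27.2 CPM in KO and 17.1 to 19.9 CPM in WT libraries and the myeloid and dendritic cell markers at 12.5 to 14.1 and 8.03 to 11.1 CPM, none of them at 0, and their part in the result was not tested. The other 6 genes overlapped between the genotypes. Tnf differed by 0.27 ± 0.18 and Lta by 0.37 ± 0.26 (adjusted p 0.264 and 0.311), and Tnfsf11 by -0.099 ± 0.37, with a 95% interval of -0.89 to 0.69.

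**Figure D4:**
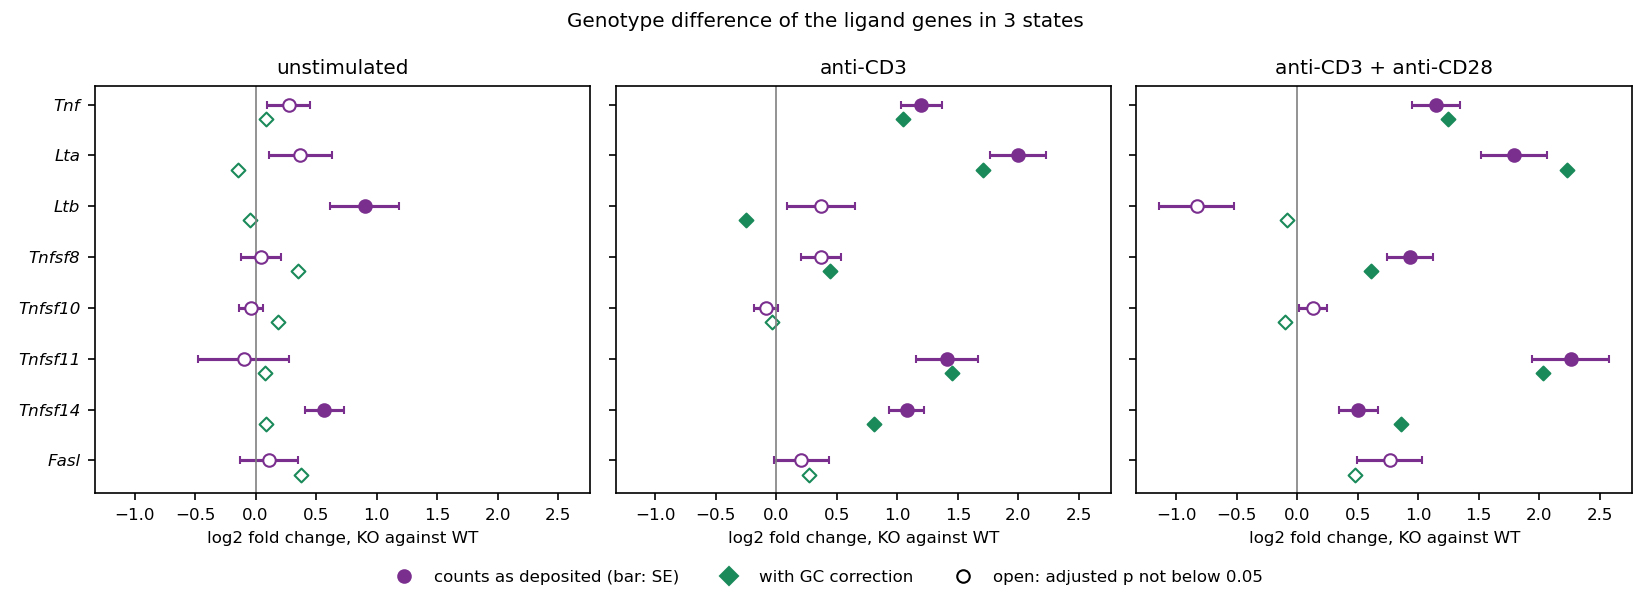
The log2 difference of KO against WT cells for each ligand gene in 3 states, from the counts as deposited (with the SE) and with the GC correction. Filled symbols have an adjusted p below 0.05 (edgeR). Tnf, Lta, Tnfsf11 and Tnfsf14 are filled in both versions with anti-CD3 and with both antibodies, whereas Ltb is filled as deposited in unstimulated cells only, and with the correction with anti-CD3 only, where it is below 0.

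The genotype difference was tested for a change between states. From unstimulated cells to both antibodies it grew by 0.87 ± 0.26 for Tnf, 1.42 ± 0.37 for Lta, 0.89 ± 0.25 for Tnfsf8 and 2.36 ± 0.49 for Tnfsf11 (log2 ± SE), and for Ltb the change was -1.73 ± 0.42. Thus 4 members were called higher and 1 lower, where 37.5% of all genes were called (adjusted p 0.0161, 0.00869, 0.0126, 0.00398 and 0.007 by edgeR). The call of Tnf ended without either WT library with both antibodies and without both libraries of extreme GC tilt, and that of Tnfsf8 without WT replicate 3 and with the GC correction (0.26, adjusted p 0.315 by edgeR). Ltb, the lower call, was at -0.039 with that correction (adjusted p 0.851). From unstimulated cells to anti-CD3, 0 members were called by edgeR (0.0554% of all genes) and 2 by DESeq2 (118 of all genes higher and 98 lower). Without KO replicate 1 with both antibodies edgeR called Tnf and Lta, and fitted to only the groups compared it called Lta. The latter fit called 282 of all genes higher and 193 lower. At most 366 of all genes were called with any 1 library left out. The estimates were 0.93 ± 0.25 for Tnf, 1.62 ± 0.35 for Lta, 1.51 ± 0.46 for Tnfsf11 and 0.51 ± 0.21 for Tnfsf14, the 4 with an unadjusted p below 0.05, with adjusted p of 0.162, 0.0919, 0.195 and 0.287. From anti-CD3 to both antibodies 0 members were called by edgeR (0.00616% of all genes), with 4 members at an unadjusted p below 0.05. DESeq2 called 1 member, Ltb, beside 1012 of all genes higher and 1368 lower. Without KO replicate 1 with both antibodies edgeR called Ltb, Tnfsf8, Tnfsf11 and Fasl. Over all genes, the largest count in this comparison with any 1 library left out was 4753.

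Adding anti-CD28 to anti-CD3 gave 0 called genes in WT and in KO cells by edgeR (0% of all genes in each). At an unadjusted p below 0.05 there were 2 members in WT cells (Ltb at 0.80 ± 0.31 and Tnfsf11 at -0.76 ± 0.31) and 1 in KO cells (Tnfsf14 at -0.39 ± 0.14), beside 3506 and 1460 of all genes. DESeq2 called 398 genes higher and 90 lower in WT cells and 0 in KO cells, with no member among them. Limma voom with quality weights called 4 members in WT and 3 in KO cells. Of the 16246 tested genes it called 3217 higher and 2863 lower in WT cells, and 2253 higher and 3272 lower in KO cells. In WT cells edgeR called Ltb, Tnfsf8 and Tnfsf11 when fitted to only the groups compared (2551 genes higher and 2229 lower) and when both libraries of extreme GC tilt were left out (1611 and 1321), and Ltb without KO replicate 3 with both antibodies, so the count depends on the test, the libraries and the fit. Tnf in WT cells was at 42.7 to 60.7 CPM with anti-CD3 alone and 44.7 to 44.8 CPM with both antibodies, a log2 difference of -0.19 ± 0.19 with a 95% interval of -0.59 to 0.22. For Lta it was -0.13 ± 0.26, with an interval of -0.69 to 0.43.

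Ltb differed from its neighbours Tnf and Lta, and its level moved with the GC tilt of the library. It was at 87.4, 126 and 146 CPM in unstimulated WT libraries, 189, 157 and 155 with anti-CD3, and 289.9 and 292 with both antibodies. In KO libraries it was at 232, 269.6 and 168 CPM unstimulated, 211, 209 and 225 with anti-CD3, and 239.8, 165 and 85.8 with both. The KO libraries with both antibodies spread more widely than the means of WT and KO cells lay apart in that state. The Ltb transcripts are 62.0% GC, more than 99% of the tested genes, whose median is 49.1%. In 4 of the 6 groups the libraries ranked by Ltb in the order of their tilt. In 1 group, the 2 WT libraries with both antibodies, the order was the reverse. In KO cells with both antibodies the tilt was 0.365, -0.361 and -1.17 in replicates 1 to 3, the order in which Ltb declined.

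The GC correction, a smooth fit of each library's deviations on the GC content of the genes, brought Ltb to 152 to 179.6 CPM in WT libraries and 155 to 162 CPM in KO libraries when unstimulated. The anti-CD3 libraries were at 212 to 217 CPM (WT) and 172 to 186 CPM (KO), those with both antibodies at 192 to 194 (WT) and 169 to 196 CPM (KO). On these values Ltb rose with anti-CD3 by 0.38 on the log2 scale in WT cells (adjusted p 0.000124) and by 0.18 in KO cells (adjusted p 0.0313), and the difference of KO against WT cells with anti-CD3 was -0.25 (adjusted p 0.00964 by edgeR). As deposited, these values were 0.48 ± 0.28, -0.056 ± 0.28 and 0.37 ± 0.28, none called. The response of WT cells to both antibodies was called on either version, at 1.28 ± 0.31 as deposited (adjusted p 0.00644) and 0.23 with the correction (adjusted p 0.0202 by edgeR). In KO against WT cells with both antibodies Ltb was lower in all 3 KO libraries as deposited and overlapped with the correction, and the difference missed the threshold on both versions (-0.83 ± 0.31, adjusted p 0.079, and -0.087, adjusted p 0.469 by edgeR). Tilt and genotype differed together in every state. Unstimulated WT libraries were at -0.765 to -0.323 and KO libraries at 0.161 to 1.201. With anti-CD3 the libraries were at -0.426 to -0.116 (WT) and 0.111 to 0.263 (KO). With both antibodies they were at 0.532 to 0.581 (WT) and -1.17 to 0.365 (KO).

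**Figure D5:**
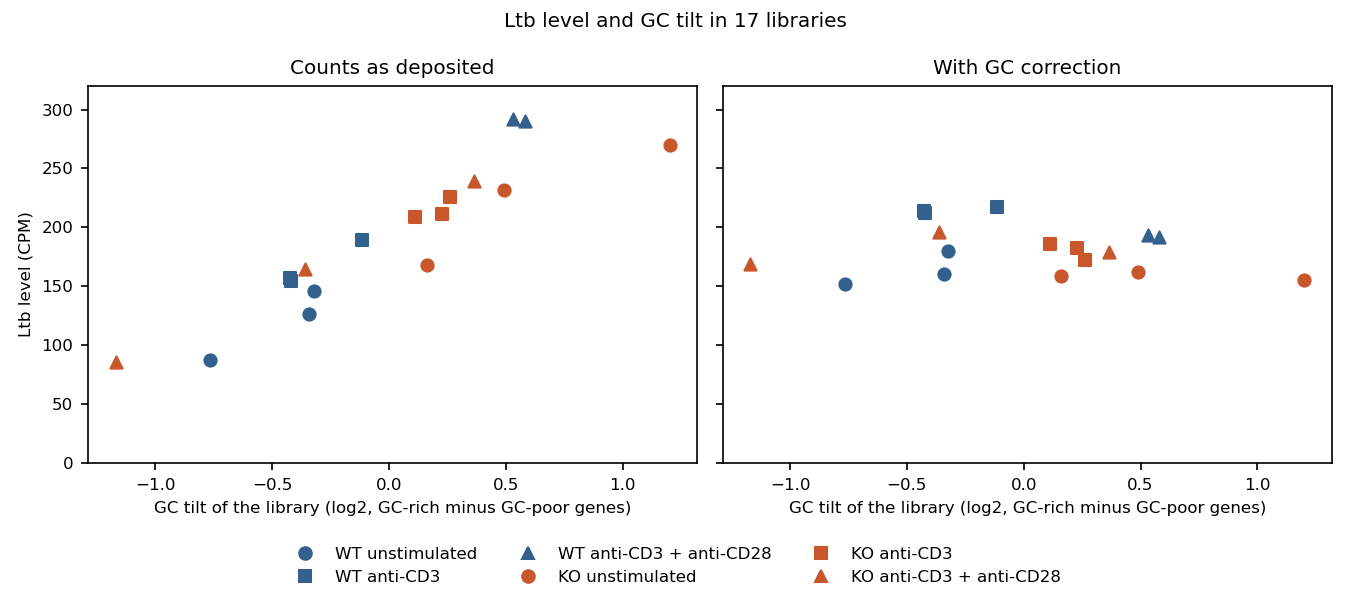
Ltb level in CPM in the 17 libraries against the GC tilt of the library, from the counts as deposited and after the GC correction. As deposited the level runs from 85.8 to 292 CPM and the highest levels are in libraries of positive tilt, whereas after the correction it runs from 152 to 217 CPM.

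Tnfsf8 and Fasl, of 42.6% and 43.7% GC, ranked against the tilt in 3 and 4 of the 6 groups, and with it in 1 group each. In KO cells with both antibodies Tnfsf8 was at 160.0, 227 and 307 CPM in replicates 1 to 3 as deposited, and at 167, 207 and 237 CPM after the correction. The log2 difference of Tnfsf8 between KO and WT cells with both antibodies was 0.61 with the correction (adjusted p 0.00262), and with anti-CD3 it passed the threshold (0.45, adjusted p 0.00566 by edgeR). Tnf (52.2% GC), Tnfsf11 (44.9%), Lta (55.7%) and Tnfsf14 (55.5%) kept their calls with the correction. Their corrected differences were 1.04, 1.45, 1.70 and 0.81 with anti-CD3, and 1.25, 2.03, 2.23 and 0.86 with both antibodies. For Lta the correction widened the spread of the KO libraries with both antibodies. Replicates 1 to 3 were at 33.6, 52.0 and 66.6 CPM as deposited and at 30.5, 56.9 and 93.9 CPM after it.

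Across the 17 libraries Tnf and Lta had a Pearson r of 0.989 on log2 CPM, and 0.72 after the group means were removed. Tnf and Ltb had 0.168 and -0.074, and Tnfsf8 and Fasl 0.947 and 0.852. These are descriptions over libraries that share their groups and their GC tilt. Among 9209 protein-coding genes, those with the highest r over the 17 libraries were Tmem97, Psmd7 and Pdia6 for Tnf (0.986 to 0.989), Cdca7, Umps and Pdia6 for Lta (0.987 to 0.988), Ppa1, Serpinb9 and Txn1 for Tnfsf11 (0.983 to 0.987) and Ybx3, Sema7a and Bcat1 for Tnfsf14 (0.986 to 0.991). For Tnfsf8 they were E2f6, Ppid and Rps27l (0.984 to 0.986), for Tnfsf10 Fchsd2, Hsd11b1 and Trmt2b (0.975 to 0.982) and for Fasl Pfdn4, Casp4 and Ppid (0.932 to 0.959). Those for Ltb were Gtpbp6, Tmem115 and Zfp276 (0.986 to 0.992), of 63%, 60.3% and 58.6% GC.

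Of 10 other ligands of the family, 3 passed the filter: Tnfsf9, Cd40lg and Tnfsf4. Tnfsf9, the 4-1BB ligand gene, rose with anti-CD3 in WT cells by 1.66 ± 0.36 on the log2 scale (adjusted p 0.00245). It was higher in KO than in WT cells with anti-CD3 by 1.34 ± 0.30 (adjusted p 0.00632 by edgeR), at 2.59 to 3.69 against 0.805 to 1.42 CPM. Cd40lg, the CD40 ligand gene, was lower in unstimulated KO cells (-1.73 ± 0.49, adjusted p 0.0188), at 0.0562 to 0.259 against 0.453 to 0.722 CPM. Once corrected for GC content that difference missed the threshold (-1.47, adjusted p 0.0822).

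Of the 14 receptors and decoys of the 8 ligands, 11 were tested. With anti-CD3 in WT cells 6 rose and 1 fell, where 24.4% of all tested genes were called, with a median log2 change of 0.49 beside -0.0037 over all genes. Tnfrsf26, of the same receptor family, rose by 0.81 ± 0.087, the HVEM-binding receptor Cd160 by 0.72 ± 0.13, the decoy Tnfrsf23 by 1.68 ± 0.35 and the TNF receptor Tnfrsf1b by 0.49 ± 0.10, while Btla, an inhibitory receptor for HVEM, fell by 0.78 ± 0.15. In KO against WT cells with anti-CD3, 1 was higher, Tnfrsf1b (0.43 ± 0.10, adjusted p 0.00961 by edgeR, 88.7 to 91.0 against 61.1 to 69.8 CPM), and 1 lower, Tnfrsf26 (-0.51 ± 0.087), beside 15.3% of all genes. With both antibodies, where WT cells had 2 libraries, 3 were higher and 1 lower (16.1% of all genes called). Fas, the receptor of Fasl, was higher by 0.86 ± 0.16 (adjusted p 0.00425), at 27.2 to 39.4 against 18.9 to 19.0 CPM, Btla by 0.86 ± 0.17 and Cd160 by 0.57 ± 0.15, and the TNF receptor Tnfrsf1a was lower (-0.55 ± 0.18), a call that the GC correction ended (-0.16, adjusted p 0.481 by edgeR). In unstimulated cells Tnfrsf1b (0.40 ± 0.10) and Tnfrsf14, which encodes HVEM (0.56 ± 0.18), were higher, and Tnfrsf26 (-0.36 ± 0.087) and Btla (-0.60 ± 0.15) lower, beside 25.4% of all genes. After GC correction the numbers called higher and lower were 0 and 0 in unstimulated cells, 3 and 3 with anti-CD3, and 3 and 1 with both antibodies, where Tnfrsf26 was the lower one (-0.40, adjusted p 0.00394 by edgeR). Over all 16246 genes these numbers were 463 and 466, 1813 and 1883, and 1595 and 1287.

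The 19 receptor adaptors and death-signal genes were all tested. With anti-CD3 in WT cells 4 rose and 2 fell, where 24.4% of all tested genes were called. Tnfaip3, which encodes the NF-kappaB inhibitor A20, fell by 1.65 ± 0.12 on the log2 scale (adjusted p 1.98e-08 by edgeR), from 369 to 517 CPM in unstimulated to 131 to 141 CPM in stimulated libraries, and Casp8, an initiator caspase of death receptors, fell by 0.44 ± 0.085. The adaptor Traf1 rose by 0.71 ± 0.096, the ubiquitin ligase Birc3 by 0.68 ± 0.074, Rnf31 by 0.55 ± 0.18 and the kinase Ripk1 by 0.25 ± 0.079. In KO against WT cells with anti-CD3 0 were higher and 3 lower, namely Ripk1 (-0.32 ± 0.079), the deubiquitinase Cyld (-0.31 ± 0.084) and Birc2 (-0.27 ± 0.081), a share of the list near the 15.3% of all genes called. With both antibodies 2 were higher, among them Traf6 (0.35 ± 0.096), and 5 lower, among them Traf5 (-0.64 ± 0.14), Sharpin (-0.53 ± 0.14), the kinase Map3k14 (-1.08 ± 0.31) and Tradd (-0.58 ± 0.17), beside 16.1% of all genes. With the GC correction the calls of Traf6 (0.17, adjusted p 0.116) and Tradd (0.065, adjusted p 0.814 by edgeR) ended, and Tradd changed sign. In unstimulated cells 6 were higher, among them Tradd (0.63 ± 0.15), Rbck1 (1.03 ± 0.25), Rnf31 (0.68 ± 0.18) and Traf1 (0.30 ± 0.096), and 2 lower, Birc2 (-0.32 ± 0.081) and Cyld (-0.27 ± 0.084), beside 25.4% of all genes. On GC-corrected counts the numbers called higher and lower were 1 and 0 in unstimulated cells, 1 and 4 with anti-CD3 and 1 and 5 with both antibodies. Over all 16246 genes these numbers were 463 and 466, 1813 and 1883, and 1595 and 1287.

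The 10 shedding proteases and mRNA decay factors of cytokines were all tested. With anti-CD3 in WT cells 1 rose and 2 fell, where 24.4% of all tested genes were called. Zfp36, which encodes tristetraprolin, a protein that destabilises Tnf mRNA, fell by 1.501 ± 0.14 on the log2 scale (adjusted p 4.63e-07 by edgeR), from 155 to 173 CPM to 55.6 to 63.5 CPM. Zfp36l2, of the same family, fell by 0.72 ± 0.080, and Zfp36l1 rose by 0.68 ± 0.11. In KO against WT cells with both antibodies 0 were higher and 1 lower, Zfp36 (-0.66 ± 0.15, adjusted p 0.0126), where 16.1% of all genes were called. With anti-CD3 Rhbdf2, a partner of ADAM17 in Tnf release, was higher (0.92 ± 0.23) and Zfp36l2 lower (-0.33 ± 0.080), beside 15.3% of all genes. In unstimulated cells Rhbdf2 (0.85 ± 0.23) and the RNase gene Zc3h12a (0.67 ± 0.22) were higher, and Rc3h1 (-0.49 ± 0.082), Zfp36l2 (-0.36 ± 0.080), Rc3h2 (-0.56 ± 0.13) and the protease gene Adam10 (-0.42 ± 0.12) lower, beside 25.4% of all genes. On GC-corrected counts the numbers called higher and lower were 0 and 1 in unstimulated cells, 2 and 2 with anti-CD3 and 0 and 1 with both antibodies. Over all 16246 genes these numbers were 463 and 466, 1813 and 1883, and 1595 and 1287.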

How the data were processed

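RNA from CD8+ T cells, stated in the labels to be over 99% pure, was depleted of ribosomal RNA and sequenced as stranded paired-end libraries, per the labels' protocols. The authors deposited whole-number counts per gene for each library; their joined table was not used. STAR 2.5.2 and RSEM 1.3.0 are named in the submitters' processing notes with builds GRCm38 and mm10. Not given in the sources used here were any rounding of RSEM estimates, the annotation release and the strand setting.

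From the deposited counts, genes were filtered by group (filterByExpr), scaled by TMM and fitted once over 17 libraries and 6 groups with edgeR 4.0.16 (robust quasi-likelihood test, R 4.3.3), with 12 contrasts adjusted by Benjamini-Hochberg. Standard errors are the absolute log2 fold change divided by the root of the F statistic. Names came from GENCODE (53650 of 53679 IDs matched) and exon length from its merged exons. GC content came from its transcript sequences, with all transcripts of a gene pooled. The GC correction was a loess (span 0.3) of each library's log2 CPM deviation on GC content, which 99.9% of tested genes had. The method was tested on simulated data.

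The 8 ligand genes and the gene lists were chosen with earlier results of these data known. Named were the 8 genes, Cblb, up to 4 called genes per list and direction with the smallest adjusted p, and the 3 genes most like each member. A result for 1 gene of these lists is not reported here. The alternatives tried were DESeq2 1.42.0, limma 3.58.1 (voom, quality weights), relative log expression scaling, a replicate block, a fit of only the compared groups, no filter or one at 1 CPM in 3 libraries, the GC correction with and without that block, both libraries of extreme GC tilt left out, and each of 17 libraries left out in turn. The list counts with the GC correction were added after the data were seen.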

Additional observations from a re-analysis of the deposited data

Results flagged for a closer look

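For 5 ligand genes the difference between KO and WT cells changed between unstimulated cells and cells with both antibodies, by a test of that change itself (edgeR quasi-likelihood interaction, Benjamini-Hochberg). That test called 37.5% of all tested genes. The change in the log2 difference was 0.87 for Tnf, 1.42 for Lta, -1.73 for Ltb, 0.89 for Tnfsf8 and 2.36 for Tnfsf11. With the GC correction the same changes were 1.16 for Tnf (adjusted p 0.019), 2.37 for Lta (adjusted p 0.0219), -0.039 for Ltb (adjusted p 0.851), 0.26 for Tnfsf8 (adjusted p 0.315) and 1.95 for Tnfsf11 (adjusted p 0.00822). Tnf, Lta and Tnfsf11 passed the threshold on both versions of the counts, and Ltb and Tnfsf8 on the deposited counts only. Over all genes 1228 were called higher and 1013 lower with the correction. The call of Tnf ended when both libraries of extreme GC tilt were left out. The GC tilt of the libraries ran from -0.765 to -0.323 in unstimulated WT cells, 0.161 to 1.201 in unstimulated KO cells, 0.532 to 0.581 in WT cells with both antibodies and -1.17 to 0.365 in KO cells with both antibodies, and its part in these changes was not tested beyond the correction.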

How the results depend on the processing

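Of 2592 values (96 member results under 27 alternatives), 2403 kept their direction and their side of the threshold, 61 newly passed it, 47 no longer did and 81 changed sign, 9 of them with a call on either side. The cause was not tested where none is named. The sign changed under limma voom for Tnfsf10 (0.0081) and Tnfsf11 (0.028) in KO against WT unstimulated, and for Tnfsf14 (0.21) in the genotype change from unstimulated to both antibodies, and for Tnf (0.13) and Lta (0.016) in the genotype change from anti-CD3 to both antibodies. The sign changed under fits of only the groups compared for Tnfsf11 (0.070) in KO against WT unstimulated, and for Tnf (0.0029) in the genotype change from anti-CD3 to both antibodies. The sign changed under the GC correction for Lta (-0.14), Ltb (-0.048), Tnfsf10 (0.19) and Tnfsf11 (0.076) in KO against WT unstimulated, and for Ltb (-0.25) in KO against WT with anti-CD3, and for Tnfsf10 (-0.10) in KO against WT with both antibodies, and for Ltb (0.18) in the anti-CD3 response of KO cells, and for Ltb (0.19) in the response of KO cells to both antibodies, and for Ltb (-0.15), Tnfsf10 (0.082) and Tnfsf14 (-0.16) in anti-CD28 added in WT cells, and for Lta (0.021), Ltb (0.012) and Tnfsf11 (-0.0051) in anti-CD28 added in KO cells, and for Fasl (-0.11) in the genotype change from unstimulated to anti-CD3, and for Tnfsf10 (-0.29) and Tnfsf14 (0.77) in the genotype change from unstimulated to both antibodies, and for Tnf (0.20), Lta (0.52), Ltb (0.16), Tnfsf10 (-0.068) and Tnfsf14 (0.049) in the genotype change from anti-CD3 to both antibodies. The sign changed under the GC correction with replicate block for Lta (-0.17), Ltb (-0.048), Tnfsf10 (0.19) and Tnfsf11 (0.046) in KO against WT unstimulated, and for Ltb (-0.25) in KO against WT with anti-CD3, and for Tnfsf10 (-0.12) in KO against WT with both antibodies, and for Ltb (0.18) in the anti-CD3 response of KO cells, and for Ltb (0.19) in the response of KO cells to both antibodies, and for Ltb (-0.16), Tnfsf10 (0.097) and Tnfsf14 (-0.22) in anti-CD28 added in WT cells, and for Ltb (0.011), Tnfsf11 (-0.013) and Fasl (-0.014) in anti-CD28 added in KO cells, and for Fasl (-0.088) in the genotype change from unstimulated to anti-CD3, and for Tnfsf10 (-0.31) and Tnfsf14 (0.84) in the genotype change from unstimulated to both antibodies, and for Tnf (0.29), Lta (0.63), Ltb (0.17), Tnfsf10 (-0.082) and Tnfsf14 (0.10) in the genotype change from anti-CD3 to both antibodies. The sign changed under both libraries of extreme GC tilt left out for Tnfsf10 (0.069) and Tnfsf11 (0.42) in KO against WT unstimulated, and for Ltb (0.070) in the anti-CD3 response of KO cells, and for Tnfsf8 (-0.067) and Fasl (-0.11) in anti-CD28 added in KO cells, and for Fasl (-0.056) in the genotype change from unstimulated to anti-CD3, and for Tnfsf10 (-0.0036) in the genotype change from unstimulated to both antibodies. The sign changed under the replicate block for Tnf (0.040) in the genotype change from anti-CD3 to both antibodies. Limma voom called, of the 8 genes, 1 for KO against WT unstimulated, 4 for anti-CD28 added in WT cells, 3 for anti-CD28 added in KO cells, 2 for the genotype change from unstimulated to anti-CD3 and 4 for the genotype change from anti-CD3 to both antibodies. No filter called, of the 8 genes, 1 for KO against WT unstimulated. Fits of only the groups compared called, of the 8 genes, 1 for KO against WT unstimulated, 0 for KO against WT with both antibodies, 3 for anti-CD28 added in WT cells and 1 for the genotype change from unstimulated to anti-CD3. The replicate block called, of the 8 genes, 1 for KO against WT unstimulated. The GC correction called, of the 8 genes, 0 for KO against WT unstimulated and 3 for the genotype change from unstimulated to both antibodies. The GC correction with replicate block called, of the 8 genes, 1 for KO against WT unstimulated and 1 for the genotype change from unstimulated to anti-CD3. Both libraries of extreme GC tilt left out called, of the 8 genes, 3 for anti-CD28 added in WT cells. DESeq2 called, of the 8 genes, 2 for the genotype change from unstimulated to anti-CD3 and 1 for the genotype change from anti-CD3 to both antibodies. The following are ranges with each library left out in turn, and each number of genes called there is out of the 8 ligand genes. KO against WT unstimulated ran for Fasl from -0.030 to 0.23, for Tnfsf10 from -0.13 to 0.072, for Tnfsf11 from -0.39 to 0.42, for Tnfsf8 from -0.022 to 0.11 and for the number of genes called from 0 to 2. KO against WT with both antibodies ran for the number of genes called from 0 to 7. The anti-CD3 response of KO cells ran for Ltb from -0.25 to 0.10. Anti-CD28 added in WT cells ran for Lta from -0.25 to 0.062 and for the number of genes called from 0 to 1. Anti-CD28 added in KO cells ran for Fasl from -0.12 to 0.43, for Tnfsf11 from -0.038 to 0.30 and for Tnfsf8 from -0.082 to 0.38. The genotype change from unstimulated to anti-CD3 ran for Fasl from -0.019 to 0.25, for Tnfsf10 from -0.16 to 0.0037 and for the number of genes called from 0 to 2. The genotype change from unstimulated to both antibodies ran for Tnfsf14 from -0.26 to 0.092 and for the number of genes called from 3 to 6. The genotype change from anti-CD3 to both antibodies ran for Lta from -0.44 to 0.049, for Tnf from -0.20 to 0.10 and for the number of genes called from 0 to 4.

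Counts over all genes called higher and lower that moved by more than 1.5 times, or whose split moved by over 10 points, follow. KO against WT unstimulated had 2493 and 1641 as reported, 2270 and 889 with fits of only the groups compared, 463 and 466 with the GC correction and 481 and 499 with the GC correction with replicate block. KO against WT with anti-CD3 had 1713 and 779 as reported, 1428 and 1070 with relative log expression scaling, 1736 and 1355 with DESeq2, 3641 and 2124 with limma voom, 1530 and 1113 with 1 CPM in 3 libraries, 3121 and 2141 with fits of only the groups compared, 1813 and 1883 with the GC correction, 1833 and 1926 with the GC correction with replicate block and 2478 and 1751 with both libraries of extreme GC tilt left out. KO against WT with both antibodies had 1598 and 1023 as reported, 4691 and 4718 with limma voom, 0 and 0 with fits of only the groups compared and 1010 and 516 with both libraries of extreme GC tilt left out. The response of WT cells to both antibodies had 2890 and 2648 as reported, 4286 and 4177 with limma voom. The response of KO cells to both antibodies had 3731 and 3648 as reported, 2041 and 1949 with fits of only the groups compared and 2254 and 2480 with both libraries of extreme GC tilt left out. Anti-CD28 added in WT cells had 0 and 0 as reported, 398 and 90 with DESeq2, 3217 and 2863 with limma voom, 22 and 2 with no filter, 2551 and 2229 with fits of only the groups compared, 3 and 1 with the GC correction, 11 and 3 with the GC correction with replicate block and 1611 and 1321 with both libraries of extreme GC tilt left out. Anti-CD28 added in KO cells had 0 and 0 as reported, 2253 and 3272 with limma voom. The genotype change from unstimulated to anti-CD3 had 8 and 1 as reported, 6 and 2 with relative log expression scaling, 118 and 98 with DESeq2, 607 and 232 with limma voom, 47 and 16 with no filter, 10 and 3 with 1 CPM in 3 libraries, 282 and 193 with fits of only the groups compared, 6 and 0 with the replicate block, 210 and 192 with the GC correction, 360 and 291 with the GC correction with replicate block and 81 and 55 with both libraries of extreme GC tilt left out. The genotype change from unstimulated to both antibodies had 2972 and 3117 as reported, 1228 and 1013 with the GC correction, 1455 and 1225 with the GC correction with replicate block and 1738 and 2035 with both libraries of extreme GC tilt left out. The genotype change from anti-CD3 to both antibodies had 0 and 1 as reported, 0 and 0 with relative log expression scaling, 1012 and 1368 with DESeq2, 3596 and 4109 with limma voom, 12 and 314 with no filter, 0 and 0 with 1 CPM in 3 libraries, 0 and 0 with fits of only the groups compared, 0 and 0 with the replicate block, 4 and 5 with the GC correction, 7 and 11 with the GC correction with replicate block and 351 and 716 with both libraries of extreme GC tilt left out. Same-numbered replicates correlated in their deviations from the group means from -0.20 to 0.547, the highest in replicate 3 of KO cells with both antibodies against unstimulated. The labels state no pairing and not every pair correlated positively, so the numbers were not used to pair libraries, and a shared batch was not tested. The replicate block took the members called from 2 to 1 in KO against WT unstimulated (Ltb was lost), from 5 to 6 with both antibodies and left 4 with anti-CD3. Depth limits mainly Tnfsf11 in unstimulated cells, at 0.582 to 1.44 CPM.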
